A study of Mus musculus with 2 samples.

Results

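The S100 genes encode small calcium-binding proteins, and 10 of the 31053 features counted in this series were examined here: *S100a8*, *S100a9*, *S100a4*, *S100a6*, *S100a10*, *S100a11*, *S100a1*, *S100a13*, *S100a14* and *S100a16*. They were chosen by symbol, with no measured value in the rule, and all 10 were found in both libraries. The feature list held 7 other S100 genes, which are described at the end. The transcripts were counted by single-cell RNA sequencing of periodontal tissue, with gingiva and the surface of the alveolar bone curetted together and digested with collagenase and DNase. The control library came from untreated wild-type C57BL/6 mice aged 8 weeks. The LIP library came from wild-type C57BL/6 mice of the same age with ligature-induced periodontitis (LIP), in which a ligature tied around a molar provokes gingival inflammation and alveolar bone loss, and was made 7 days after ligature placement. The LIP library pooled cells from 5 mice, and the number of mice behind the control library was not given in the sources used here.

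S100 proteins are EF-hand proteins that mostly act as dimers and change shape when they bind calcium. *S100a8* and *S100a9* encode the subunits of calprotectin, which fills the neutrophil cytosol, binds zinc and manganese, and acts outside the cell as an alarmin through TLR4 and RAGE. Keratinocytes of stressed or inflamed epithelium also make calprotectin, while other family members act mainly inside the cell on annexins, myosin and the cytoskeleton.

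All 10 genes lie on chromosome 3 in the mouse (RefSeq annotation of GRCm38.p6, the assembly that mm10 represents). *S100a1*, *S100a13*, *S100a14*, *S100a16*, *S100a4*, *S100a6*, *S100a8* and *S100a9* fall in this order within chr3:90511034-90695721. *S100a11* (chr3:93520496-93526288) and *S100a10* (chr3:93555117-93564645) form a second group on the same chromosome. *S100a8* (chr3:90669071-90670034, plus strand) and *S100a9* (chr3:90692630-90695721, minus strand) point towards each other and are 22595 bases apart. The annotated *S100a1* and *S100a13* overlap by 98 bases, so reads in those bases cannot be assigned to 1 gene by position alone.

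*S100a8* and *S100a9* were the genes the results turn on, and the 250 bases before the annotated start of each are shown, 5′ to 3′ on the strand of the gene. Capitals mark matches to the motifs searched: TTGCNNAA for C/EBP, TGANTCA for AP-1, AGGAAGTG for PU.1 and TATAAA for the TATA box, on both strands.
*S100a8*, chr3:90668821-90669070, plus strand: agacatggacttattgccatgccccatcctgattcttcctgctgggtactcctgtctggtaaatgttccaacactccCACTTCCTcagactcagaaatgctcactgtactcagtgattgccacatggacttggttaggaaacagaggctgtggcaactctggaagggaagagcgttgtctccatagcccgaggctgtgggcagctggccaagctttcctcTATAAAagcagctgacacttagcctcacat
*S100a9*, chr3:90695722-90695971, minus strand: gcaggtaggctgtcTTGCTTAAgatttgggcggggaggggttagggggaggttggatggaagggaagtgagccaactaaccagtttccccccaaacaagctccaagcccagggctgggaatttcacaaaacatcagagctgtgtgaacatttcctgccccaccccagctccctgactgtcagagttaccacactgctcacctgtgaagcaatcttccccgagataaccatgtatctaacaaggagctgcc
In *S100a8* the capitals are a reverse-strand match to the PU.1 letters, 173 to 166 bases before the start, and a TATA match 30 to 25 bases before it. In *S100a9* they are a C/EBP match 236 to 229 bases before the start. These letters are found in many promoters: among 32851 RefSeq windows of the same length, 3.14% held the PU.1 letters, 12.4% the TATA letters, 9.56% the C/EBP letters and 6.75% the AP-1 letters, which matched neither gene. A match is a description of the sequence, and no binding was measured.

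The LIP library held 1212 barcodes and the control library 1169, of which 936 and 883 cells passed the filters on genes, UMIs and mitochondrial share. The LIP cells kept held 10560109 UMIs, at a median of 5595 per cell, and the control cells kept held 13407122, at a median of 10845. The libraries shared 2 barcodes, 1 of them among kept cells. Cells were clustered without any S100 gene and the clusters named from marker lists that hold none, which gave 13 classes for 882 LIP and 834 control cells. Neutrophil-like cells made up 324 of the LIP cells (34.6%) and 53 of the control cells (6.00%). The other classes compared were epithelial-like (112 LIP and 224 control cells), osteogenic-like (57 and 121), Schwann-like (103 and 37), vascular endothelial-like (79 and 48), macrophage-like (84 and 42), mural-like (45 and 46) and T-like (27 and 51). Levels are counts per 1000000 UMIs of the class (CPM), and intervals are exact 95% intervals that cover counting error only. Each condition is 1 library, so no p-value or replicate spread can be given, and a difference between libraries cannot be told apart from a difference between conditions. A ratio past 2-fold is called higher or lower, among genes with at least 50 UMIs in a class over both libraries.

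**Figure D1:**
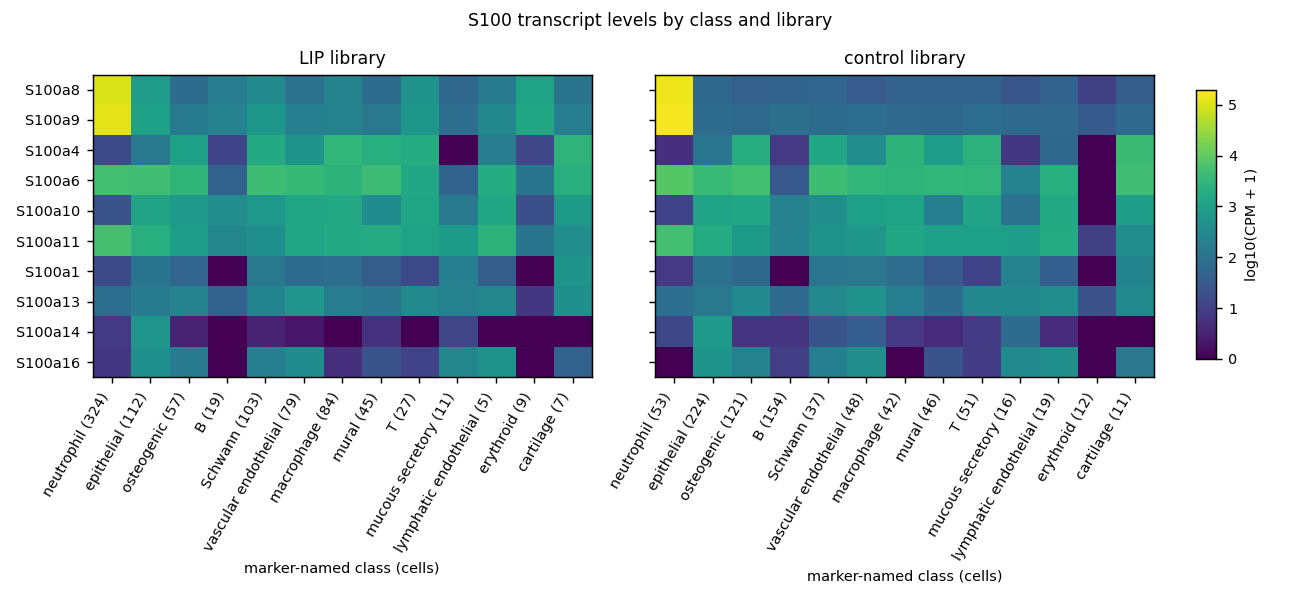
Level of each of the 10 S100 genes (rows) in each marker-named class (columns, with the number of cells) for the LIP library (left) and the control library (right), as log10(CPM + 1) by colour. *S100a8* and *S100a9* stand between 100450.3 and 165422 CPM in neutrophil-like cells, *S100a14* is seen mainly in epithelial-like cells, and *S100a6* and *S100a11* are high in many classes.

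*S100a8* and *S100a9* were neutrophil transcripts first of all. In neutrophil-like cells *S100a8* stood at 100450.3 CPM (interval 99963 to 100939) in LIP and 148893 CPM (147789 to 150004) in control. *S100a9* stood at 118174 CPM (117645 to 118704) and 165422 CPM (164258 to 166592). Together these genes supplied 21.9% of all UMIs of the class in LIP and 31.4% in control. *S100a8* was found in 321 of 324 LIP and 52 of 53 control neutrophil-like cells, and when each cell was thinned to 1000 UMIs it was still found in 98.4% and 98.1% of those deep enough. In B-like cells, which should lack it, the thinned share was 10.5% of 19 LIP cells and 4.55% of 154 control cells, at median depths of 4386 UMIs in the LIP cells against 3857.5 in the LIP neutrophil-like cells.

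Over the whole library the pair was more abundant in LIP, whereas within neutrophil-like cells its level was lower. The log2 ratio over all kept cells, LIP over control, was 1.29 for *S100a8* (16009 against 6553 CPM) and 1.40 for *S100a9* (18946 against 7171 CPM). Within neutrophil-like cells the log2 ratio was -0.57 (-0.58 to -0.55) for *S100a8* and -0.49 (-0.50 to -0.47) for *S100a9*. The share of the library's *S100a8* UMIs that lay in neutrophil-like cells was 96.3% in LIP and 79.2% in control. For *S100a9* these shares were 95.8% and 80.4%. Most of the remaining control UMIs of both genes lay in 4 cells rich in *Camp* and *Ngp* that no class took, described below. All 31 such LIP cells were neutrophil-like, so the contrast in shares depends on where these cells are counted. With 15 dimensions 20 of the 21 such control cells were neutrophil-like. The *S100a8* shares were then 98.0% in LIP and 92.8% in control.

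**Figure D2:**
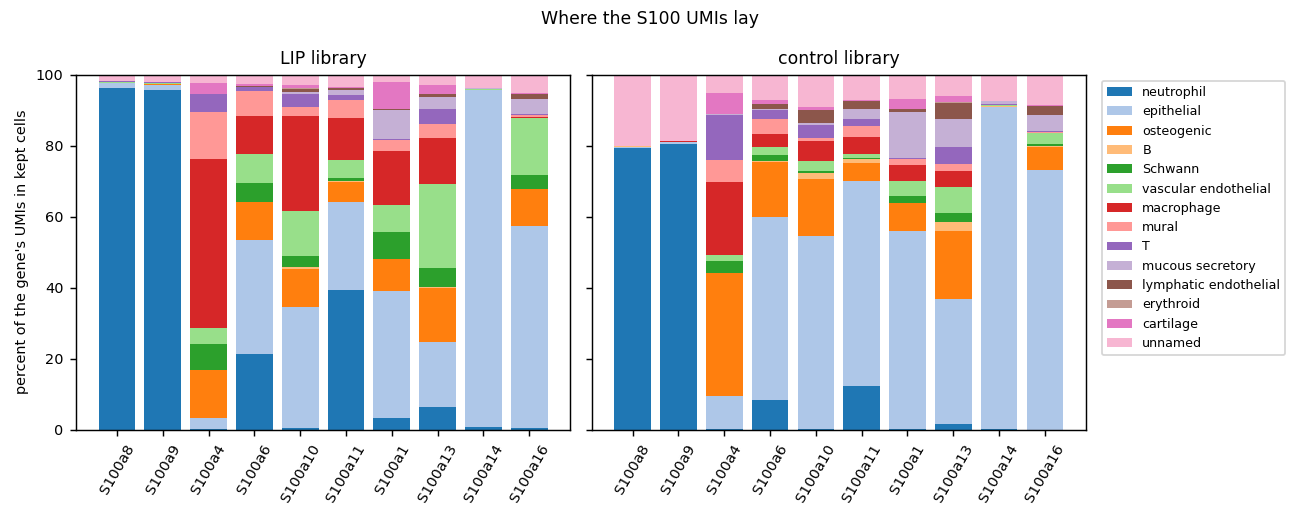
Share of each gene's UMIs in kept cells (vertical axis, percent) that lay in each marker-named class (colours), for the LIP library (left) and the control library (right). Neutrophil-like cells held 96.3% of *S100a8* UMIs in LIP and 79.2% in control, and epithelial-like cells held 94.8% and 90.7% of *S100a14* UMIs. Most of the remaining control *S100a8* UMIs lay in cells with no class.

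Neutrophil-like cells fell into cells rich in granule transcripts and cells rich in cytokine transcripts, and the libraries held them in different proportions. The granule sub-cluster (48 LIP and 23 control cells) was led by *Ltf*, *Ngp* and *Camp*, genes for granule proteins made during neutrophil maturation in the marrow. The cytokine sub-cluster (276 LIP and 30 control cells) was led by *Acod1*, *Ccl3* and *Csf3r*. *S100a8* in granule cells stood at 168193 CPM in LIP and 173899 in control, a log2 ratio of -0.05. *S100a9* there stood at 183411 and 190890.1 CPM, a log2 ratio of -0.06. In the cytokine sub-cluster *S100a8* was lower than in granule cells in both libraries, at 56952 CPM in LIP and 80911 in control (log2 ratio -0.51). *S100a9* in that sub-cluster stood at 76285 and 96182 CPM (-0.33). Each sub-cluster differed by less than the class as a whole, though for *S100a8* the cytokine sub-cluster (-0.51) was close to the class (-0.57). Granule cells were 48 of 324 neutrophil-like cells in LIP and 23 of 53 in control. They were deeper than cytokine cells, at medians of 11206.5 against 3592 UMIs in LIP and 12603 against 3658 in control, and so weighed more in the class level. They held 106620 of the 162846 *S100a8* UMIs of the class in LIP and 59443 of 69616 in control. The part of these proportions in the class ratio was not tested.

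The remaining S100 transcripts of neutrophil-like cells were *S100a6* and *S100a11*. *S100a6*, whose product binds annexins and tropomyosin, stood at 4990.3 CPM in LIP and 8016 in control (log2 -0.68). In cytokine cells it was 4861 against 9743 CPM (-1.003), where 7.66% of the 2101 genes compared there were past 2-fold lower. In granule cells it was 5192 against 7381 CPM (-0.51). *S100a11* was 5484 against 5097 CPM (0.11). *S100a4* and *S100a10*, at 14.2 and 22.2 CPM in LIP, were near the lowest levels seen in any class. Of the 10 genes 5 had enough UMIs to compare in neutrophil-like cells and none was past 2-fold, where 12.3% of the 3202 genes compared were higher and 3.09% lower. Their median log2 ratio was -0.49, against 0.03 for all genes compared.

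In epithelial-like cells *S100a8* and *S100a9* were the only members of the 10 past 2-fold, both higher in LIP. *S100a8* stood at 808 CPM (774 to 844) in LIP and 60.8 CPM (54.8 to 67.3) in control, a log2 ratio of 3.73 (3.57 to 3.90). *S100a9* stood at 1083 against 72.2 CPM, a log2 ratio of 3.91 (3.76 to 4.06). All 10 genes could be compared, and 2 of 10 were higher and none lower, where 2.32% of 9393 genes were higher and 1.53% lower. *S100a8* was found in 89 of 112 LIP cells and 120 of 224 control cells at median depths of 23929 and 27595 UMIs. After thinning to 1000 UMIs the shares were 22.5% and 5.91% of the cells that deep. Shallower cells were left out, among them a LIP cell with 59 *S100a8* UMIs of 513. The control share was near that of B-like cells, so most control cells with *S100a8* cannot be told from background. In LIP the B-like share came from only 19 cells and gives no close background. By summed UMIs the LIP B-like cells stood at 173 CPM of *S100a8*, above LIP basal cells at 114 CPM.

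The class ratio rested on a minority of cells and on which cells the class held. The highest cell held 29.9% of the LIP *S100a8* UMIs, and 1 control cell held 51.2% of the control UMIs. The log2 ratio without the highest cell of each library was 4.25 for *S100a8* and 3.46 for *S100a9*. The median cell stood at 74.5 CPM in LIP and 25.9 in control for *S100a8*, and at 184 and 44.9 CPM for *S100a9*. Clusterings with 15 dimensions, with a mitochondrial limit of 5% or with no upper limit on genes and UMIs placed 1, 3 and 7 control cells rich in *Camp* and *Ngp* in the epithelial-like class, and the last also 2 such LIP cells. With them the log2 ratio of *S100a8* was -0.11, -2.99 and 0.32, and without them it was 3.81, 2.45 and 4.71. For *S100a9* it was 0.23, -3.45 and 0.34 with them and 3.89, 1.86 and 4.52 without.

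Most *S100a8* and *S100a9* UMIs of LIP epithelial-like cells lay in suprabasal cells, 1887 of 2081 and 2565 of 2787. This sub-cluster (64 LIP and 116 control cells) was led by *Krt6b*, *Krt16*, *Krt13*, *Krt4* and *Krtdap*, keratins and markers of differentiating and stressed oral epithelium. *S100a8* stood there at 1609 CPM in LIP and 31.2 in control, a log2 ratio of 5.69 (5.40 to 6.00). *S100a9* stood at 2187 and 54.1 CPM, a log2 ratio of 5.34 (5.11 to 5.57), where 3.76% of the 7207 genes compared in this sub-cluster were past 2-fold higher. In basal cells (34 LIP and 74 control cells, led by *Pappa*, *Fst* and *Col17a1*) *S100a8* was 114 against 136 CPM (-0.26) and *S100a9* 148 against 114 CPM (0.37). A single control basal cell held 192 of the 242 *S100a8* UMIs, together with 52 UMIs of 9 neutrophil reference genes, and without it the control levels were 28.6 CPM for *S100a8* and 51.4 CPM for *S100a9*. In the cycling sub-cluster (14 LIP and 34 control cells) *S100a8* was 179.9 against 28.0 CPM and *S100a9* 176 against 57.7 CPM, and 2 LIP cells held 60 of the 94 *S100a8* UMIs beside 52 reference UMIs. Those reference genes were *Retnlg*, *Csf3r*, *Cxcr2*, *Il1r2*, *Mmp9*, *G0s2*, *Clec4d*, *Hdc* and *Stfa2l1*.

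Within the suprabasal sub-cluster the LIP cells were split. At a level of 500 CPM with more than 1 UMI, a threshold set after the values were seen, 27 of 64 LIP cells (42.2%, interval 29.9% to 55.2%) were high for *S100a8* and 1 of 116 control cells (0.862%). A shallow cell reaches that level with fewer UMIs. The median depth of the sub-cluster was 15108.5 UMIs in LIP and 29413.5 in control, so the shares are not at equal depth. These 27 cells held 97.6% of the *S100a8* UMIs of the sub-cluster (1842 of 1887) and 13 UMIs of the reference genes. Their median depth was 3200 UMIs, against 20934 in the other LIP cells, which stood at 60.8 CPM. For *S100a9* 22 cells (34.4%) were high and the others stood at 162 CPM. The cell with most *S100a8* held 623 UMIs of it, 698 of *S100a9*, 100 of *Krt6b*, 78 of *Krt16* and none of the reference genes. The next cell held 299 UMIs of *S100a8* and 1292 of *S100a9* with 2 reference UMIs. The cell after it held 256 and 17 with 1 reference UMI and no *Krt6b*, so the pair was not in 1 ratio over these cells. Keratin levels of the sub-cluster also differed, where *Krt16* stood at 1305 CPM in LIP and 676 in control, *Krt13* at 2092 and 4850.1, and *Krtdap* at 323 and 673.

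**Figure D3:**
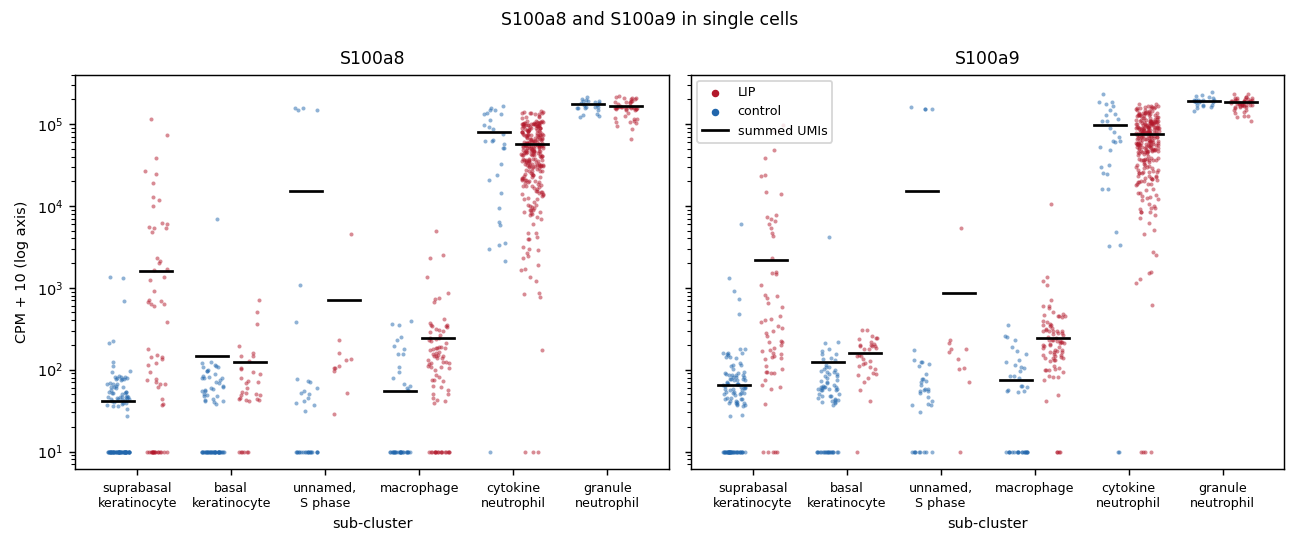
*S100a8* (left) and *S100a9* (right) in single cells of 6 sub-clusters, as CPM + 10 on a log axis, with LIP cells in red, control cells in blue and a black bar at the level of the summed UMIs. The suprabasal LIP cells spread over more than 3 orders of magnitude around a summed *S100a8* level of 1609 CPM, the control cells lie near 31.2 CPM, and 4 control cells without a class stand at the level of granule neutrophils.

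In the suprabasal sub-cluster other S100 genes were also somewhat higher in LIP, none past 2-fold. *S100a6* stood at 6221 against 3352 CPM (0.89), *S100a11* at 3336 against 2179 CPM (0.61) and *S100a10* at 1277 against 906 CPM (0.50). *S100a14* (763 against 861 CPM, -0.17) and *S100a16* (559 against 689 CPM, -0.30) leaned the other way. In basal cells *S100a6* was 3952 against 5005 CPM (-0.34) and *S100a11* 1127 against 1338 CPM (-0.25).

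In the control library, 4 cells outside the named classes carried most of the *S100a8* that lay outside neutrophil-like cells. They lay in a sub-cluster led by S-phase genes such as *Hist1h2ap*, *Rrm2* and *Top2a*, which stayed unnamed with 2 markers of any class (11 LIP and 37 control cells). In these 4 cells *S100a8* was counted 5702, 4555, 3734 and 3630 times, and the sub-cluster as a whole held 17645 UMIs (15128 CPM). The same cells held 2268, 1124, 911 and 979 UMIs of *Camp* and 1888, 1666, 1471 and 1480 of *Ngp*. The fifth control cell held 3 *S100a8* UMIs. In the LIP library 1 cell held 249 of the 282 UMIs of this sub-cluster, with 102 reference UMIs. A further unnamed sub-cluster of shallow cells (43 LIP and 12 control, median 789 UMIs) stood at 54549 CPM in LIP, with 414 reference UMIs. Its control cells held 1 *S100a8* UMI and no reference UMI.

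Outside neutrophil-like and epithelial-like cells, *S100a8* and *S100a9* stood far below the neutrophil level, and higher in LIP than in control in each compared class. Epithelial-like cells did not stand apart from these classes in control. Their *S100a9* level there (72.2 CPM) lay below that of T-like cells (81.9 CPM). B-like cells, too few in LIP (19) to be compared, were also higher there, at 173 against 48.8 CPM for *S100a8* and 227 against 91.1 CPM for *S100a9*. These LIP levels rest on 16 and 21 UMIs, and lay above those of vascular endothelial-like, osteogenic-like and mural-like cells. In erythroid-like cells (9 LIP and 12 control) *S100a8* was 1189 against 8.89 CPM, which rest on 194 and 2 UMIs. The LIP UMIs lay beside 47 UMIs of the reference genes, and 3 of the 9 LIP cells held neither *S100a8* nor *S100a9*. In macrophage-like cells, *S100a8* was 236 CPM in LIP and 45.4 in control (log2 2.38, and 2.43 without the highest cells), and *S100a9* was 232 and 64.0 CPM (1.86). In vascular endothelial-like cells *S100a8* was 95.6 and 31.9 CPM (1.58), and *S100a9* 197 and 81.1 CPM (1.28). The highest LIP cell held between 5.26% and 14.9% of the UMIs in these 4 comparisons. However, 7 LIP macrophage-like cells held 180 of the 368 *S100a8* UMIs, beside 172 reference UMIs. The reference genes include *Clec4d*, which macrophage-like cells also expressed, and the source of the *S100a8* UMIs in these cells was not tested.

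In Schwann-like and T-like cells single cells held most of the UMIs. The level of *S100a8* in Schwann-like cells was 340.4 CPM in LIP and 51.7 in control (2.72), and 1 cell held 66.0% of the LIP UMIs beside 59 reference UMIs. Without the highest cells the log2 ratio was 1.15. In T-like cells it was 503 and 47.6 CPM (3.40), 1 cell held 81.9% beside 18 reference UMIs, and the ratio without the highest cells was 1.23. For *S100a9* the ratios were 3.07 in Schwann-like and 2.99 in T-like cells, or 1.83 and 1.40 without the highest cells.

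The osteogenic-like class joined cells led by bone genes and cells led by fibroblast genes. The latter were 26 of 57 LIP and 101 of 121 control cells. In the class *S100a8* was 73.8 and 40.6 CPM (0.86) and *S100a9* 161 and 65.7 CPM (1.29). In mural-like cells *S100a8* was 75.02 and 42.3 CPM (0.83) and *S100a9* 131 and 59.2 CPM (1.15).

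The neutrophil reference genes gave the level of other neutrophil transcripts in the same cells. Neutrophil-like cells held 4.98 *S100a8* UMIs per reference UMI in LIP and 5.24 in control. Within LIP, granule cells held 8.31 and cytokine cells 2.83. Single granule cells varied widely. In control 1 held 7519 *S100a8* UMIs beside 1457 reference UMIs and another 6121 beside 5, and in LIP 1 held 5971 beside 29. The control S-phase sub-cluster, with its 4 cells rich in *Camp* and *Ngp*, held 252 per reference UMI (199 to 324). In LIP epithelial-like cells the value was 15.3 (12.9 to 18.3), and in the suprabasal sub-cluster 48.4 (35.3 to 68.3), against 1.96 in the control suprabasal cells. In LIP basal cells it was 3.03, and in control basal cells 3.14. The other compared classes of the LIP library lay below the neutrophil value, from 0.293 in macrophage-like cells to 3.07 in vascular endothelial-like cells. In the control library they lay between 0.0989 and 0.947. *Clec4d* and *Il1r2* of the reference list were themselves expressed outside neutrophils, at 455 CPM in LIP macrophage-like cells and 364 CPM in LIP T-like cells respectively, which lowers the ratio there. *S100a9* UMIs per *S100a8* UMI were 1.18 in LIP neutrophil-like cells, with 1.09 in granule and 1.34 in cytokine cells. In the other compared LIP classes they ran from 0.98 (0.85 to 1.14) in macrophage-like to 2.18 (1.71 to 2.78) in osteogenic-like cells. In control they were 1.11 in neutrophil-like cells, and 1.19 in epithelial-like to 2.55 in vascular endothelial-like cells. The source of the pair in each class was not tested.

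**Figure D4:**
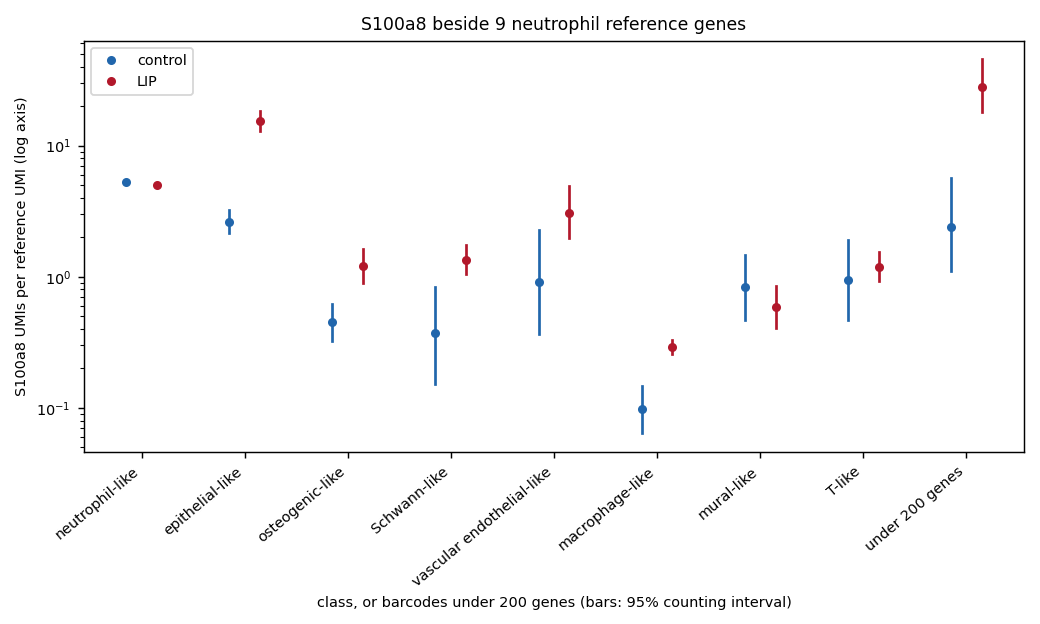
UMIs of *S100a8* per UMI of 9 neutrophil reference genes (vertical axis, log scale) in each class and in barcodes under 200 genes, for control (blue) and LIP (red), with 95% counting intervals. LIP epithelial-like cells stand at 15.3 and LIP barcodes under 200 genes at 27.9, both above neutrophil-like cells at 4.98, and the other LIP classes lie below. The 27.9 rests on 5 barcodes, which held 572 of the 585 *S100a8* UMIs and 18 of the 21 reference UMIs.

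Barcodes with fewer than 200 genes were taken to stand for free RNA, for want of a nearer measure in the files, but they were not near-empty. Their median depth was 6019 UMIs in LIP and 3545 in control, against 5595 and 10845 in kept cells. Their median mitochondrial share was 87.8% in control and 0.335% in LIP, so they need not hold free RNA alone. *S100a8* stood there at 1001 CPM (922 to 1086) over 73 LIP barcodes and 24.7 CPM over 161 control barcodes. *S100a9* stood at 1169 and 47.3 CPM. However, 5 LIP barcodes of 546 to 914 UMIs held 572 of the 585 *S100a8* UMIs and 18 of the 21 reference UMIs. The other LIP barcodes stood at 22.4 CPM for *S100a8* and 58.5 CPM for *S100a9*. Summed over these barcodes, the haemoglobin transcript *Hbb-bs* made up 36.2% of UMIs in LIP and 38.8% in control. The part of free RNA in the *S100a8* and *S100a9* levels of cells other than neutrophils was not tested.

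**Figure D5:**
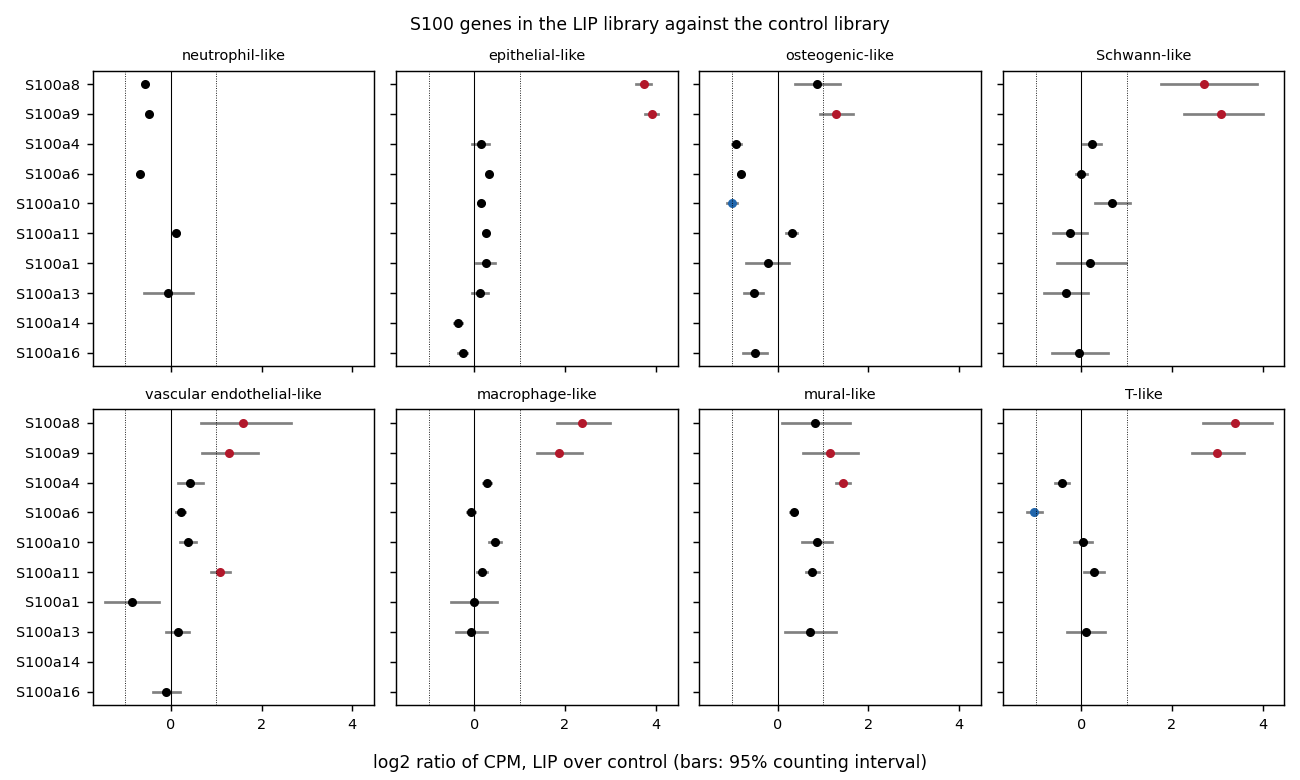
Log2 ratio of CPM, LIP over control, of each of the 10 S100 genes in 8 classes, with 95% counting intervals; red marks ratios past 2-fold higher, blue past 2-fold lower, and dotted lines 2-fold. *S100a8* or *S100a9* is red in 7 of the 8 classes, and neutrophil-like cells have no gene past 2-fold.

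Over the 8 classes, 64 of 80 pairs of gene and class could be compared, of which 14 were higher in LIP, 2 lower and 48 within 2-fold. *S100a8* and *S100a9* made up 12 of the 14. In osteogenic-like cells 1 of 9 genes was higher and 1 lower, where 3.78% of all 6752 genes compared were higher and 8.18% lower. In Schwann-like cells 2 of 9 were higher and none lower (3.74% and 3.70% of 2083 genes), and in vascular endothelial-like cells 3 of 9 were higher and none lower (5.32% and 3.11% of 4057 genes). In macrophage-like cells 2 of 8 were higher and none lower, where 8.20% of 4999 genes were higher and 3.70% lower. In mural-like cells 2 of 7 were higher and none lower (3.87% and 3.39% of 3750 genes). In T-like cells 2 of 7 were higher and 1 lower, where 8.46% of 1784 genes were higher and 5.27% lower. The median log2 ratio of the genes compared was between -0.50 in osteogenic-like cells and 0.83 in mural-like cells, where the medians of all genes compared were -0.17 and 0.05.

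*S100a4*, which encodes a myosin-binding protein used as a marker of fibroblasts and, in the study, of periodontal ligament cells, was highest in macrophage-like cells in both libraries, at 3251 CPM (3162 to 3341) in LIP and 2669 in control. Mural-like cells followed in LIP and T-like cells in control (1931 CPM in LIP and 2590 in control), whose interval overlapped that of control macrophage-like cells, and Schwann-like cells stood at 1763 and 1494 CPM. In LIP the intervals of mural-like and T-like cells overlapped, as did those of T-like and Schwann-like cells. In mural-like cells, *S100a4* was higher in LIP, at 2194 against 809 CPM (1.44, interval 1.29 to 1.59). The highest LIP mural-like cell held 26.6% of those UMIs, the ratio without the highest cells was 1.31, and the median cell stood at 403 CPM in LIP and 83.6 in control. Epithelial-like cells stood at 130 and 118 CPM.

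*S100a4* and *S100a6* were lower in LIP osteogenic-like cells, within 2-fold. *S100a4* stood at 1045 CPM in LIP and 1964 in control (-0.91), and *S100a6* at 2992 and 5247 CPM (-0.81). The osteogenic-like class held cells led by bone genes, *Ibsp*, *Bglap* and *Bglap2*, and cells led by fibroblast genes, *Mfap4*, *Clec3b* and *Dpt*. In bone-gene cells (31 LIP and 20 control) *S100a4* was 993 against 2267 CPM (-1.19), *S100a6* 1900.4 against 4299 CPM (-1.18) and *S100a10* 517 against 1180 CPM (-1.19). Past 2-fold lower were 8.03% of the 3087 genes compared in that sub-cluster. In fibroblast-gene cells (26 LIP and 101 control) the log2 ratios of the same genes were -0.74, -0.19 and -0.49. The bone-gene cells of LIP held more bone transcripts, with *Ibsp* at 9249 CPM against 231 in control and *Bglap* at 9590 against 787 CPM.

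*S100a6* was found at over 1000 CPM in each of the 8 classes of both libraries. Its level in LIP was highest in neutrophil-like cells (4990.3 CPM), followed by epithelial-like (4751 CPM), Schwann-like (4570.0 CPM) and mural-like cells (4218 CPM). The intervals of epithelial-like and Schwann-like cells overlapped, as did those of Schwann-like and mural-like cells. In Schwann-like cells the control level was 4556 CPM (log2 ratio 0.00, interval -0.11 to 0.12). In T-like cells *S100a6* was lower in LIP by the summed UMIs, at 1504 against 3087 CPM (-1.04), while the median cell stood at 712 CPM in LIP and 210 in control and 20 of 27 LIP and 31 of 51 control cells held a UMI.

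*S100a10* and *S100a11* encode the partners of annexin A2 and annexin A1. *S100a10*, which does not need calcium to bind its annexin, was highest in macrophage-like cells in LIP (1603 CPM) and in osteogenic-like cells in control (1485 CPM). In osteogenic-like cells it was lower in LIP, at 738 against 1485 CPM (-1.01, interval -1.12 to -0.90), with the median cell at 622 against 1200 CPM. Neutrophil-like cells held 22.2 and 10.7 CPM. *S100a11* was highest in neutrophil-like cells in both libraries and second in epithelial-like cells (2192 and 1834 CPM). In vascular endothelial-like cells it was higher in LIP, at 1369 against 643 CPM (1.09, interval 0.88 to 1.30), a ratio of 0.96 without the highest cells.

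*S100a14* was the most restricted gene by share of UMIs outside the calprotectin pair. It is a gene of epithelia, and epithelial-like cells held 94.8% of its UMIs in LIP and 90.7% in control, at 574 and 735 CPM (-0.36, interval -0.44 to -0.27). It was found in 105 of 112 LIP and 217 of 224 control epithelial-like cells, and in the 7 other compared classes it did not exceed 37.7 CPM. Over all kept cells its log2 ratio was -1.34, in libraries whose epithelial-like share of cells was 12.0% in LIP and 25.4% in control. *S100a16*, a neighbour of *S100a14*, was shared by epithelial-like cells (453 and 541 CPM) and vascular endothelial-like cells (381 and 409 CPM). It was counted 0 times in the 53 control neutrophil-like cells, where 3 UMIs would stand at 6.42 CPM.

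*S100a1* was low in all compared classes, with a highest level of 138 CPM. *S100a13*, which takes part in the release of proteins without a signal peptide, was highest in vascular endothelial-like cells (569 and 513 CPM), followed by T-like cells (324 and 301 CPM) in LIP. The LIP interval of T-like cells overlapped that of Schwann-like cells. *S100a1*, known from heart and skeletal muscle, stood at 138 and 121 CPM in Schwann-like cells and 112 and 93.9 CPM in epithelial-like cells. In vascular endothelial-like cells it was 70.2 against 127 CPM (-0.86, interval -1.44 to -0.27). Cartilage-like cells, of which there were 7 in LIP and 11 in control, stood at 547 and 243 CPM.

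The other S100 genes marked few cells. *S100b*, a glial S100 gene, stood in Schwann-like cells at 1116 CPM in LIP (85 of 103 cells) and 833 in control (23 of 37 cells), and in the few cartilage-like cells at 1174 and 368 CPM. *S100a5* was counted 1206 times in the control library and 6 times in LIP. Of the control UMIs 1179 lay in 9 osteogenic-like cells, and 4 of these held 363, 293, 278 and 175. In the 57 LIP osteogenic-like cells it was counted 0 times, where 3 UMIs would stand at 2.19 CPM. The fibroblast-gene cells held 1178 of the control UMIs, and they numbered 101 in control and 26 in LIP. With so few control cells holding the gene, the 0 in LIP cannot be told from too few cells. *S100g* was counted 108 times in LIP, 107 of them in 1 epithelial-like cell, and 6 times in control. *S100a3* was counted 26 and 28 times.

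The genes through which S100 proteins act were read from a list of 9 receptors and adaptors and a list of 7 membrane and cytoskeletal partners. Of the receptor pairs of gene and class, 34 of 72 could be compared, 7 were higher in LIP and 2 lower, where between 2.32% and 12.3% of all genes compared in a class were higher and between 1.53% and 8.18% lower. *Cd14*, the co-receptor of TLR4, was higher in neutrophil-like cells at 4348 against 682 CPM (2.67), in macrophage-like cells at 2001 against 490 CPM (2.03) and in epithelial-like cells at 24.1 against 7.30 CPM (1.72). Within neutrophil-like cells its log2 ratio was 2.08 in the cytokine sub-cluster and 0.73 in the granule sub-cluster. *Tlr4* itself was 38.2 and 34.2 CPM in neutrophil-like cells. *Ager*, the gene of RAGE, was counted 24 times in LIP and 12 times in control. *Cd36*, a scavenger receptor, was lower in LIP vascular endothelial-like cells, at 111 against 661 CPM (-2.58), and higher in LIP macrophage-like cells, at 147 against 48.8 CPM (1.59). *Alcam* was higher in neutrophil-like cells (1.29) and lower in Schwann-like cells (-1.23), *Ly96* higher in vascular endothelial-like cells (1.017) and *Bsg* higher in T-like cells (1.55).

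The annexins were mostly within 2-fold. Of the partner pairs 52 of 56 could be compared, 2 were higher in LIP and 3 lower, to be read against the same shares of all genes, such as 8.18% lower in osteogenic-like cells. *Anxa1*, the partner of *S100a11*, was higher in epithelial-like cells at 1770 against 516 CPM (1.78) and in vascular endothelial-like cells (1.01), and lower in T-like (-1.30) and osteogenic-like cells (-1.002). *Anxa11* was lower in osteogenic-like cells (-1.47). *Anxa2*, the partner of *S100a10*, was within 2-fold in all 8 classes.

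Across 17 profiles of 9 classes, the genes most like an S100 gene were found by Pearson's correlation of log2(CPM + 10) over 4448 genes. The profiles share 2 libraries and differ in depth, so the values are a description. *S100a8* was most like *S100a9* (r = 0.997), then *Chil1* (0.953) and *Camp* (0.949). *S100a14* was most like *Krt5* (0.991), *Esrp1* (0.979) and *Krt6a* (0.979), and *S100a16* was most like *Efnb1* (0.955). *S100a10* was most like *Hint1* (0.926), *S100a1* *Ccnd1* (0.919), *S100a11* *Sem1* (0.897), *S100a4* *Lgals1* (0.880) and *S100a6* *Ctsd* (0.856). The least alike among the 10 were *S100a9* and *S100a10* (-0.76).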

How the data were processed

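The labels give 2 libraries of periodontal tissue, 1 control and 1 LIP. The authors made 10x Genomics 3′ version 3 libraries, aligned reads to mm10 with Cell Ranger (3.0 in their methods, 3.1.0 in the matrix header) and deposited the unnormalized counts (UMIs of each gene in each barcode). Barcodes with 200 to 7500 genes, at most 60000 UMIs and at most 10% mitochondrial UMIs were kept, and genes found in fewer than 3 cells were left out of clustering.

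Seurat 5.3.0 was used to integrate the libraries and to cluster cells (30 dimensions, resolution 0.1, sub-clusters at 0.2) on 1994 of the 2000 variable genes, leaving out 6 S100 genes. Sub-clusters were named from marker lists with no S100 gene. A sub-cluster needed 3 markers, and a shallow one 2 markers among its 10 leading genes; the latter rule was set after values were seen. Scrublet in scanpy 1.11.5 marked 1 LIP and 4 control cells as doublets, which were kept. UMIs were summed per class and library, with exact Poisson, Clopper-Pearson or conditional 95% intervals from scipy 1.17.1. The ratios were tested on simulated Poisson sums. These hold no spread between cells, so the intervals were not tested for classes in which single cells hold much of a sum. Promoters came from a RefSeq table of GRCm38.p6.

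The 10 genes, the lists and the fold rule were chosen with earlier results of these data known. The 10 genes are named in full, other S100 genes from 50 UMIs over both libraries, list genes past 2-fold, and from the 3 most alike per gene; 1 result on likeness is not reported here. *S100a3*, *Camp*, *Ngp*, keratins and bone genes, and the leading genes of sub-clusters, were named after values were seen.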

Additional observations from a re-analysis of the deposited data

Results flagged for a closer look

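*S100a8* and *S100a9* were also counted in barcodes that the comparisons did not use, those left out only for their mitochondrial share (179 in LIP and 109 in control). Over these barcodes *S100a8* stood at 1811 CPM (1702 to 1925) in the LIP library and 362 CPM (318 to 410) in the control library. *S100a9* stood at 1900.2 CPM (1789 to 2017) and 499.7 CPM (448 to 556). Both were singled out because the LIP level lay above the control level in data outside the main measurement, a rule applied to this pair only. The LIP interval also lay above the control interval for *S100a6* (2724 against 2047 CPM), *S100a10* (430 against 301 CPM) and *S100a11* (1113 against 777 CPM). For *S100a4* it lay below (518 against 673 CPM). These barcodes were not assigned to a class, and how many neutrophils they hold was not tested. No group held enough samples to look for one that stood apart.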

How the results depend on the processing

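No paired analysis was possible because each condition has 1 library. The 14 pairs higher in LIP became 3 and 7 when cells were thinned to 1000 and 2000 UMIs and 8 at a 3-fold limit. The minimum of 50 UMIs also held for thinned counts, so pairs dropped out there for too few UMIs as well as for a smaller ratio. The 2 lower pairs became 6 at a mitochondrial limit of 5%, 1 by the mean of single-cell CPM, 0 at 1000 UMIs, 6 at 1.5-fold and 0 at 3-fold. The neutrophil-like share of *S100a8* UMIs in LIP (96.3%) was 96.2% with S100 genes kept for clustering and at resolution 0.3, 98.0% with 15 dimensions, 96.9% at 5%, 86.5% without upper limits, 86.6% by the single-cell mean, 94.96% and 98.8% thinned to 1000 and 2000 UMIs, and 97.9% with the shallow sub-cluster counted. For *S100a9* (95.8%) these were 95.6%, 95.6%, 97.7%, 96.2%, 87.8%, 86.0%, 94.1%, 98.8% and 97.6%. In control the *S100a8* share (79.2%) was 92.8% with 15 dimensions, 83.5% at 5%, 65.3% without limits, 89.8% by the mean, and 90.2% and 89.6% thinned. The *S100a9* share (80.4%) was 93.0%, 84.3%, 68.5%, 90.6%, 90.9% and 91.1%. The epithelial-like ratio reversed to -0.11 (*S100a8*, 15 dimensions), -2.99 (*S100a8*, 5%) and -3.45 (*S100a9*, 5%), by the cells rich in *Camp* and *Ngp*. The lead of the highest class, on the log2 scale, reversed for *S100a1* in Schwann-like LIP cells (-0.22 and -0.13 thinned to 1000 and 2000) and in vascular endothelial-like control cells (-0.64 without limits), *S100a6* in neutrophil-like LIP cells (-0.23 by the mean, -0.10 thinned to 1000), *S100a10* in macrophage-like LIP cells (-0.038 at 5%, -0.056 thinned to 1000) and osteogenic-like control cells (-0.0487 without limits), and *S100a4* in macrophage-like control cells (-0.12 at 5%). The cause of these was not tested. In LIP barcodes under 100 genes *S100a8* and *S100a9* stood at 34.1 and 73.0 CPM. Of the 16 pairs past 2-fold, 3 were within it with 15 dimensions, 3 by the mean, 4 without limits, 4 and 2 when thinned and 1 without the highest cells, with *S100a11* in vascular endothelial-like cells (range 0.21 to 1.39) among them each time. Leaving out the highest cells, counting the shallow sub-cluster and leaving out cells rich in *Camp* and *Ngp* were chosen after seeing the data.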
